A study of Mus musculus with 6 samples.

Results

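The AP-1 and Egr immediate early transcription factors were followed in crypts of the mouse ileum, the last part of the small intestine, after deletion of Adar in the gut epithelium. The set holds 10 genes, taken by symbol from the 55446 genes of the authors' deposited table: the Fos family (Fos, Fosb, Fosl1, Fosl2), the Jun family (Jun, Junb, Jund) and the Egr family (Egr1, Egr2, Egr3). Of these, 7 were tested by the authors and 3 were not, because their status gave too little signal, and 8 had a value above 0 in at least 1 condition. RNA came from 6 libraries: 3 Adar fl/fl, whose genotype label is WT, and 3 Adar iΔgut, which carry floxed Adar and the transgene VilCreERt2 and are labelled Adar1 KO. All animals had been given tamoxifen, and the crypts were taken at day 3 without culture. In this transgene the villin promoter limits the tamoxifen-activated Cre to the gut epithelium, so immune and stromal cells in the preparation keep intact Adar. No label gives strain or age.

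Fos and Jun proteins pair through leucine zippers to form AP-1, a factor that binds DNA as a dimer. Jun proteins can pair with one another, whereas Fos proteins need a Jun or another partner. Egr proteins bind GC-rich DNA through zinc fingers. Most of these genes are immediate early genes: growth factors, cytokines, stress and injury switch on their transcription within minutes through MAP kinases, the serum response factor SRF and CREB, without new protein synthesis, and their mRNAs decay quickly. In the gut epithelium AP-1 acts downstream of epidermal growth factor signalling, and its activity is raised in proliferating and healing epithelium.

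The authors' deposited table gives 1 pooled FPKM (fragments scaled to transcript length and library size) for a condition con and 1 for a condition TMX, with a p-value and a q-value, the p-value adjusted over the 15762 genes tested. A gene is called where q is under 0.05. No value per library was used, so no spread between mice stands beside a level and differences are judged by the authors' test alone. Both genotypes had tamoxifen, so the condition names do not give the genotype, and con was taken as the floxed controls and TMX as the iΔgut mice by elimination only. Adar, the deleted gene, was at 19.5 FPKM (con) and 52.0 FPKM (TMX) (q = 0.0575 in the authors' deposited table). That direction goes against the reading, a gene-level value also counts exons that are not deleted, and directions are therefore given for the condition labelled TMX.

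Egr1 was the only member that the authors called, and it was higher in TMX. Egr1 encodes a zinc-finger activator that is among the first genes switched on by growth factors (ENSMUSG00000038418.7, GRCm38 chromosome 18, 34859823 to 34864984, plus strand, 2 exons). Its level was 0.803 FPKM (con) and 19.3 FPKM (TMX), a plain ratio of 24.1. The log2 fold change of FPKM plus 1 was 3.50, and the authors' deposited table lists p = 5e-05 and q = 0.00112. This is the lowest p-value that the table holds, and 704 genes share it. In con, Egr1 lay above 14.4% of the tested genes, and in TMX it lay above 77.5% of them.

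The other Egr genes had low or 0 listed values. Egr3 (chromosome 14, 70077203 to 70082614, plus strand), a related factor known from lymphocytes, muscle spindles and neurons, was at 0.176 FPKM (con) and 0.309 FPKM (TMX) and was not tested. Egr2 (chromosome 10, 67535475 to 67542188, plus strand), known for its roles in the hindbrain and in myelin, was listed at 0 in both conditions, as was the remaining family gene Egr4. Of the summed level of Egr1 and Egr3 alone, Egr1 made up 82.0% in con and 98.4% in TMX. In a table without counts a listed 0 can be a failed estimate, so the level of Egr2 is not known from this table and the shares leave it out. The corepressors Nab1 and Nab2 bind Egr proteins and limit their activity, and neither was called. Nab1 was at 17.1 and 21.7 FPKM (q = 0.559), and Nab2 at 1.11 and 2.54 FPKM (q = 0.687 in the authors' deposited table).

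**Figure D1:**
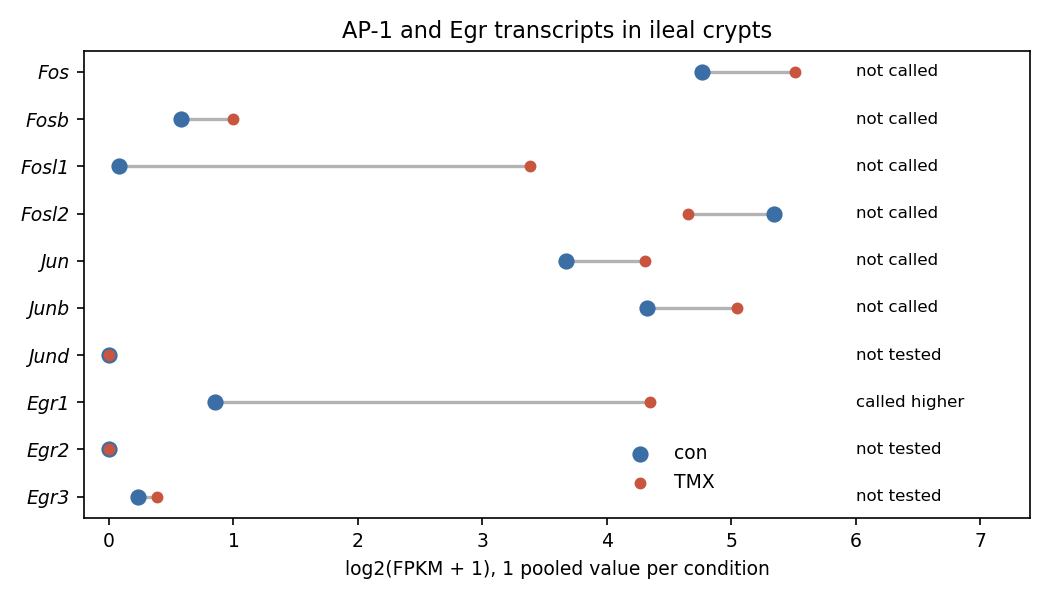
Level of each of the 10 members as log2 of FPKM plus 1, with a blue point for con and an orange point for TMX, each 1 pooled value without replicate error, and the outcome of the authors' test at the right. Egr1 and Fosl1 span the longest distances, Fosl2 is the only tested member with the lower level in TMX, and Jund and Egr2 lie at 0 in both conditions.

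Of the 7 tested members, 1 was called higher and none lower, where the authors called 6.60% of all tested genes higher and 5.70% lower. With so few members, 1 call is not read as a result about the set. At an unadjusted p under 0.05, 5 members were higher (Egr1, Junb, Jun, Fos and Fosl1) and none lower, against 12.1% and 10.7% of all tested genes. The log2 fold change was above 0 for 6 of the 7 and below 0 for 1, Fosl2, with a median of 0.73 beside 0.05 over all tested genes. That median is the value of Junb, which these counts also include. As set out below, the Junb value may not describe its coding mRNA. Egr1 and Fosl1 were low in con and may have had enough signal for the authors' test only through their level in TMX, so these counts cover the members with enough signal and not the whole set. By level, the order was Fosl2, Fos, Junb, Jun, Egr1, Fosb, Egr3 and Fosl1 in con, and Fos, Junb, Fosl2, Egr1, Jun, Fosl1, Fosb and Egr3 in TMX. Without a spread between libraries, neighbours in either order cannot be ranked with confidence.

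**Figure D2:**
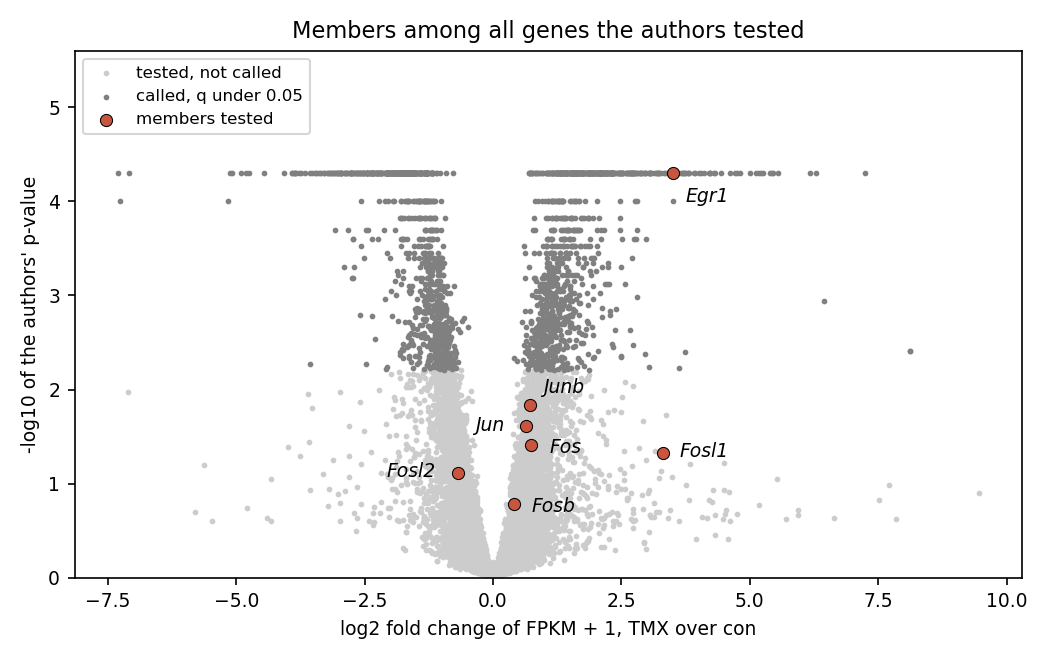
Each point is 1 of the 15762 tested genes, with the log2 fold change of FPKM plus 1 (TMX over con) on the x axis and the negative log10 of the authors' p-value on the y axis, called genes in dark grey and the 7 tested members in orange. Egr1 lies on the upper edge, at the lowest p-value of the table, while Fosl1 has a log2 fold change of 3.30 at a p-value of 0.0475.

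In the Fos family no member passed the test, and the members lay on both sides of 0. Fos, the founding member (chromosome 12, 85473890 to 85477273, plus strand, 4 exons), was at 26.3 FPKM (con) and 44.6 FPKM (TMX), a plain ratio of 1.70. Its log2 fold change of 0.74 came with p = 0.0389 and q = 0.185 in the authors' deposited table. Fosl2, or Fra-2 (chromosome 5, 32135801 to 32157842, plus strand, 4 exons), was at 39.6 FPKM (con) and 24.1 FPKM (TMX). Its log2 fold change of -0.69 came with p = 0.0771 and q = 0.289 in the authors' deposited table. Neither difference passed the threshold, so the opposite signs of Fos and Fosl2 are given as values only, and the difference between them was not tested.

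Fosl1, or Fra-1, is a Fos protein without the transactivation domain of Fos that is itself induced by AP-1 (chromosome 19, 5447547 to 5455946, plus strand, 4 exons). It was at 0.0561 FPKM (con) and 9.41 FPKM (TMX), a plain ratio of 168, the largest of the 7 tested members. With 1 added to each value the log2 fold change was 3.30, close to that of Egr1, but p = 0.0475 and q = 0.212 in the authors' deposited table did not make it a call. Of the 121 tested genes with a log2 fold change of at least 3, the authors called 72, so a fold of this size did not by itself lead to a call. Part of Fosl1 overlaps Ccdc85b on the minus strand, which was at 0.282 and 0.392 FPKM and not tested. Fosb (chromosome 7, 19302696 to 19310051, minus strand), the fourth Fos gene, was low in both conditions, at 0.495 FPKM (con) and 0.995 FPKM (TMX) (q = 0.455 in the authors' deposited table).

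The make-up of the Fos family differed between the conditions by these levels. Fosl2 held 59.6% of the summed Fos family FPKM in con and 30.5% in TMX, Fos held 39.6% and 56.4%, and Fosl1 held 0.0845% and 11.9%. The sum itself was 66.4 FPKM (con) and 79.2 FPKM (TMX). The member with the highest level was thus Fosl2 in con and Fos in TMX. The shares carry no replicate error and were not tested.

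**Figure D3:**
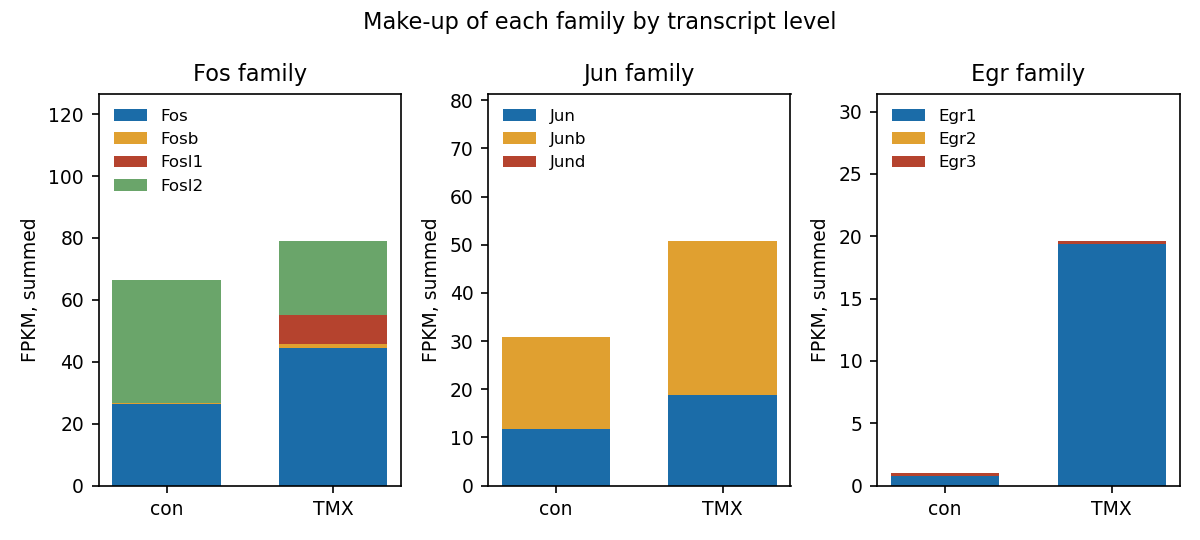
Stacked bars from 0 give the FPKM of each member summed within its family, for con and TMX, with 1 pooled value per condition, no error bar and a separate y scale for each family. Fosl2 is the larger part of the Fos bar in con and Fos in TMX, and the Egr bar is nearly all Egr1, with Egr2 and Jund adding nothing because they are listed at 0.

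Jun and Junb were each at a higher level in TMX without passing the test. Jun, the usual partner of Fos (chromosome 4, 95049034 to 95052222, minus strand, 1 exon), was at 11.8 FPKM (con) and 18.8 FPKM (TMX). Its log2 fold change of 0.63 came with p = 0.0247 and q = 0.136 in the authors' deposited table. The antisense gene Junos overlaps the 5' end of Jun, and no source used here says whether reads were counted by strand. Junos was at 0.460 and 1.12 FPKM (q = 0.484 in the authors' deposited table).

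Junb, a Jun protein that often acts as a weaker activator than Jun, was at 19.0 FPKM (con) and 32.1 FPKM (TMX). Its log2 fold change of 0.73 came with p = 0.0147 and q = 0.0944 in the authors' deposited table, the nearest to the threshold among the members not called. The value may not describe the coding mRNA. The locus that the table gives for Junb runs on chromosome 8 from 84956610 to 84976542, whereas the coding transcript in GENCODE vM21 lies from 84976910 to 84978718, outside it. Inside the locus lies a noncoding processed transcript of Junb (84974484 to 84976542, minus strand), whose end overlaps Prdx2, a peroxiredoxin gene on the plus strand. Prdx2 was at 311 and 204 FPKM (q = 0.341 in the authors' deposited table). Among 12516 tested protein-coding genes, 3 had their principal transcript outside the listed locus, Junb included. Which transcripts entered the Junb value cannot be read from the table.

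Jund (chromosome 8, 70698949 to 70700616, plus strand, 1 exon), the broadly and constitutively expressed Jun gene, was listed at 0 in both conditions and not tested. The antisense gene Gm11175 inside it was listed at 0 as well. Of 21950 protein-coding genes, 18.9% were listed at 0 in both conditions. Genes of complexes that most cells use were taken by symbol, without a check that most cells use each gene. A 0 in both conditions held for 2 of 45 proteasome genes (Psma8 and Psme2b) and 2 of 79 ribosomal protein genes (Rpl3l and Rpl10l). It held for no other gene of these classes, and for none of 37 complex I, 12 eIF3, 12 RNA polymerase II and 7 chaperonin genes. The 0 of Jund is given as listed and was not read as absence.

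Upstream sequences are shown for Fos, Jun and Fosl2. These are the members of highest level with a RefSeq start and a coding transcript inside the listed locus. Fos and Jun lay higher and Fosl2 lower in TMX, but none of them was called. No link between a motif and a direction was tested. Each is the 250 bases before the RefSeq start site on the gene's own strand, from the RefSeq table on GRCm38.p6, and capitals mark the motif matches described after the sequences. They lie at chr12:85473640-85473889 (plus strand), chr4:95052223-95052472 (minus strand) and chr5:32136222-32136471 (plus strand). For Fos and Jun the RefSeq start equals the 5' end of the GENCODE gene, while for Fosl2 it lies 671 bases downstream of it.
Fos: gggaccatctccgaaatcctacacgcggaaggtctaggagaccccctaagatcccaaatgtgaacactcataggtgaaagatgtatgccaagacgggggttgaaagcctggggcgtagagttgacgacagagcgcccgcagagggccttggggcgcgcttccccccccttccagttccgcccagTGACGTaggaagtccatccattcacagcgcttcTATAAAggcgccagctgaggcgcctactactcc
Jun: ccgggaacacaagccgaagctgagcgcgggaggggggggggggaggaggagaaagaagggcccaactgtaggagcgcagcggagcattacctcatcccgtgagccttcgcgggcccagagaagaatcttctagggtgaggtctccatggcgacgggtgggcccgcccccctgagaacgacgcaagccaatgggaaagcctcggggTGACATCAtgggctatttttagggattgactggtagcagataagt
Fosl2: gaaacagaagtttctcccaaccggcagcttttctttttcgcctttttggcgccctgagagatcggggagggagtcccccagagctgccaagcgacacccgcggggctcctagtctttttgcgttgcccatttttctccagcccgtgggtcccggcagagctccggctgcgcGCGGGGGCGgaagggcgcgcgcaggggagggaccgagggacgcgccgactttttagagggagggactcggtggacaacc

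Letters known from these promoters were searched on both strands of the same window: CRE as TGACGTCA, a shortened CRE as TGACGT (contained in the former), AP-1 as TGANTCA, its variant in Jun as TGACATCA, Egr as GCGNGGGCG, a TATA box as TATAAA, and the CArG box, which SRF binds. The table held 11 starts of 7 members (Fos, Fosb, Fosl2, Jun, Junb, Jund and Egr2). Fosl1, Egr1 and Egr3 were not matched. In Fos, TGACGT lay from -66 to -61 and TATAAA from -33 to -28 before the start site. In Jun, TGACATCA lay from -45 to -38. Fosl2 held GCGGGGGCG from -79 to -71 and Fosb the same letters from -50 to -42, both matches to the Egr motif. Egr2 held a CArG box before 4 of its 5 starts, the farthest from -133 to -124, and TGACGT before 3 of them, whose windows overlap and share the same bases. Neither TGANTCA nor TGACGTCA was in any member window, and the Junb and Jund windows held none of the motifs. The Jund window precedes a RefSeq start upstream of the 5' end of the GENCODE gene (offset of -1210 bases). It therefore does not adjoin the Jund gene of GENCODE, and sequence nearer that end was not searched.

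Among all 32851 RefSeq promoter windows of the same length, TGACGT was in 6.47%, TGACATCA in 2.93%, GCGNGGGCG in 4.70%, TATAAA in 12.4%, TGANTCA in 6.75%, TGACGTCA in 1.55% and the CArG box in 1.47%. A match describes letters in the window only. The known serum response element of Fos lies farther upstream than the window reaches. In gene structure the 10 members were compact. They had 1 to 4 exons with a median of 2, against a median of 9 over 12516 tested protein-coding genes, and their gene length had a median of 5287 bases against 23946. Their spliced length was not short, with a median of 3077 bases against 2921.

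Genes that pair with AP-1 proteins were called in both directions. Of 12 tested dimer partners, 1 passed as higher and 2 as lower in the authors' deposited table, which is 8.33% and 16.7% beside 6.60% and 5.70% of all tested genes, and the median log2 fold change was 0.21. With so few genes, these counts are not read as a result about the partners. Atf3, a stress-induced partner of Jun, rose from 23.5 to 88.3 FPKM (q = 0.00112 in the authors' deposited table). In TMX its level was higher than any value listed for the 10 members. The listed values of Egr2, Jund and Junb may not give their true levels. Maf, a large Maf factor, fell from 84.6 to 24.6 FPKM (q = 0.00112 in the authors' deposited table).

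Among other immediate early genes, rises were the more frequent calls. Of 32 tested, 13 passed as higher and 1 as lower in the authors' deposited table, which is 40.6% higher beside 6.60% of all genes, and the median log2 fold change was 0.91. Some of the 13 were low in con and may have had enough signal for the authors' test only through their level in TMX. The share and the median thus cover genes with enough signal and not the whole list. Dusp1, a phosphatase that switches off MAP kinases, rose from 1.63 to 14.6 FPKM (q = 0.010 in the authors' deposited table). By the authors' deposited table, Myc, the growth-promoting transcription factor, rose from 7.51 to 35.3 FPKM and Ier3, a stress-response gene, from 1.29 to 10.1 FPKM. By the same table, the polo-like kinase genes Plk2 and Plk3 rose from 1.76 to 15.6 FPKM and from 3.35 to 15.0 FPKM, and Errfi1, a feedback inhibitor of the EGF receptor, rose from 12.6 to 39.4 FPKM. For each of these 5 genes the authors' deposited table lists q = 0.00112. The exception was Klf4, a factor of differentiated epithelium, which fell from 52.1 to 22.6 FPKM (q = 0.00200 in the authors' deposited table) and was named after its value was seen.

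Transcripts of the cascade that acts on these genes had 2 calls, both lower. Over all tested genes the authors called 6.60% higher and 5.70% lower. With lists this small, the counts below are not read as a result about the cascade. Of 8 tested genes for SRF, its ternary complex factors and CREB, none was called or had an unadjusted p under 0.05 in the authors' deposited table, and their median log2 fold change was 0.04. Elk4, a partner of SRF, was at 29.0 and 28.8 FPKM, and Creb1 at 21.7 and 24.0 FPKM. Of 22 MAP kinase cascade genes, none passed as higher and 2 as lower in the authors' deposited table, at 9.09% lower beside 5.70% of all genes. Mapk3, or ERK1, fell from 48.3 to 19.7 FPKM (q = 0.00897), and Map2k6, a kinase that activates p38, fell from 4.50 to 1.54 FPKM (q = 0.0206 in the authors' deposited table). Of 7 genes for proteins that degrade or bind Jun, none was called or had an unadjusted p under 0.05, with Cop1 at 51.9 and 52.8 FPKM and Itch at 56.9 and 38.9 FPKM. These are transcript levels, and the activity of kinases and of AP-1 protein was not measured.

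Several known target genes of AP-1 and Egr were higher in TMX. Of 13 tested AP-1 target genes, 4 passed as higher and none as lower in the authors' deposited table, which is 30.8% higher beside 6.60% of all tested genes, with a median log2 fold change of 1.50. Targets low in con may have had enough signal for the authors' test only through their level in TMX. The share and the median thus cover targets with enough signal. Plaur, the urokinase receptor, rose from 1.30 to 28.7 FPKM and Cd44, a hyaluronan receptor, from 8.89 to 41.4 FPKM (q = 0.00112 for both in the authors' deposited table). Hbegf, a ligand of the EGF receptor, rose from 8.89 to 27.1 FPKM (q = 0.00281) and Hmga1, a chromatin protein, from 7.04 to 21.7 FPKM (q = 0.0218 in the authors' deposited table). Matrix metalloproteinases that are classical AP-1 targets (Mmp3, Mmp9, Mmp10 and Mmp13) were at 0.423 FPKM or less in both conditions and were not tested.

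Of 11 tested Egr target genes, 5 passed as higher and none as lower in the authors' deposited table, which is 45.5% higher beside 6.60% of all tested genes, with a median log2 fold change of 1.12. F3, or tissue factor, rose from 1.34 to 31.4 FPKM and Fn1, or fibronectin, from 1.98 to 21.8 FPKM (q = 0.00112 for both in the authors' deposited table). The cytokine gene Tnf rose from 0.348 to 4.08 FPKM (q = 0.00845 in the authors' deposited table). Icam1, which lets leukocytes adhere, rose from 0.908 to 3.17 FPKM (q = 0.0121), and the prostaglandin E synthase gene Ptges from 0.206 to 1.62 FPKM (q = 0.0282 in the authors' deposited table). Tnf and Ptges were low in con and may have had enough signal for the authors' test only through their level in TMX. The share and the median of the Egr targets thus cover genes with enough signal. Several of these targets are also expressed by macrophages, neutrophils or fibroblasts.

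**Figure D4:**
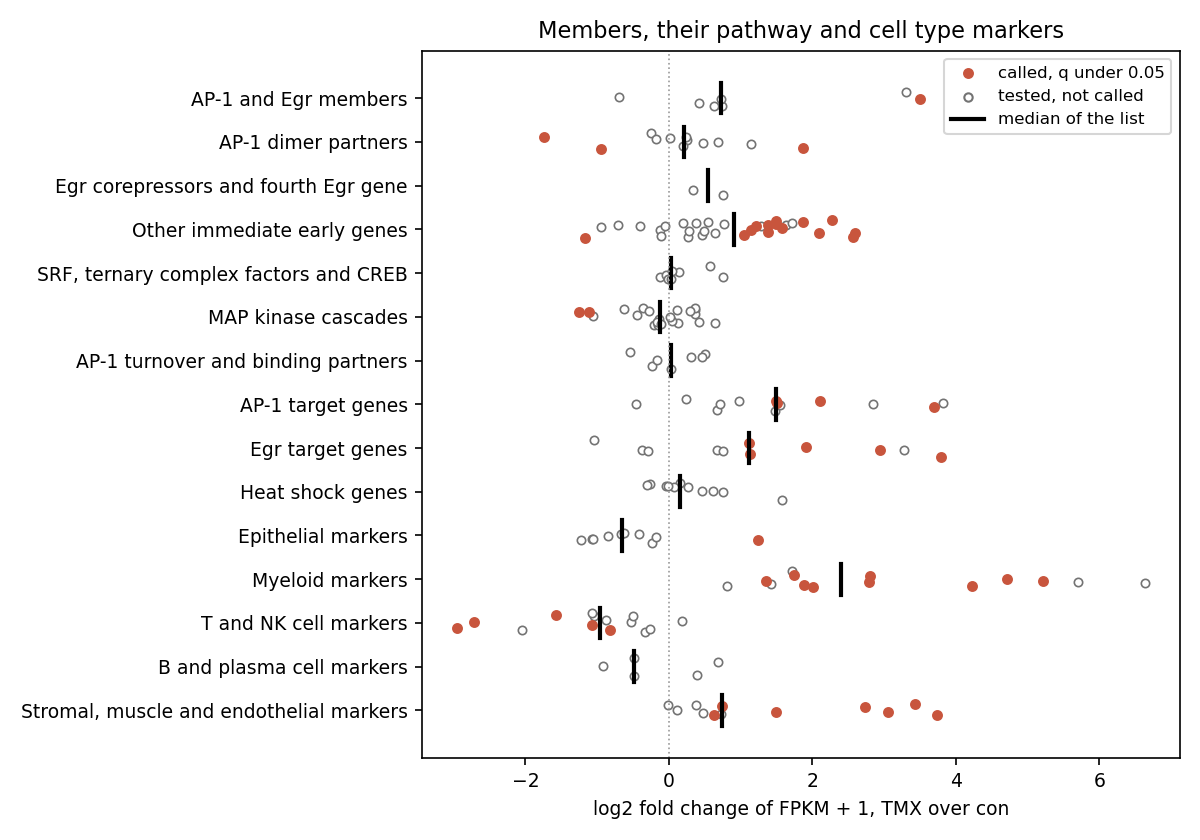
Each point is 1 tested gene of a list, placed by its log2 fold change of FPKM plus 1 (TMX over con) with random vertical spread, filled where the authors called it, and a black bar marks the list's median. The medians of the members, other immediate early genes and both target lists lie above 0, those of the SRF and MAP kinase lists lie near 0, and the marker lists of other cell types lie on both sides.

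The cell type marker lists went in different directions between con and TMX. Over all tested genes the authors called 6.60% higher and 5.70% lower. Markers low in 1 condition may have had enough signal for the authors' test only through the other, so the shares cover markers with enough signal. Of 14 tested myeloid markers, the authors' deposited table called 9 (64.3%) higher and none lower. The summed level of all 16 was 12.3 FPKM (con) and 424 FPKM (TMX), with Ly6g and Mpo listed at 0 in con. Much of the TMX sum came from Lyz2 (135 FPKM), S100a8 (104 FPKM) and S100a9 (72.1 FPKM). S100a8 (q = 0.547) and S100a9 (q = 0.553 in the authors' deposited table) were not called. Of 12 tested stromal, muscle and endothelial markers, 7 (58.3%) were called higher and none lower, and the sum of all 14 was 20.2 FPKM (con) and 204 FPKM (TMX). Much of the TMX sum came from the stromal markers Dcn (92.0 FPKM), Col3a1 (52.0 FPKM) and Vim (36.1 FPKM). The muscle markers Acta2, Des, Myh11 and Tagln were not called. Of the endothelial markers, Kdr was called higher, Pecam1 was not called and Cdh5 was not tested. T and NK cell markers went the other way, with 5 of 14 (35.7%) lower, none higher and sums of 369 and 78.4 FPKM. Gzma alone made up most of both sums, at 270 FPKM (con) and 40.4 FPKM (TMX). Of 5 tested B and plasma cell markers none was called, with sums of 16.7 and 21.3 FPKM over 6 genes. Of 10 epithelial markers, the authors' deposited table called 1 (Krt18) higher and none lower, although 9 had a log2 fold change below 0. Their median log2 fold change was -0.65, and their sum was 3193 FPKM (con) and 1966 FPKM (TMX). At an unadjusted p under 0.05, 5 epithelial markers were lower and 1 B and plasma cell marker higher, and each other count of 0 among the pathway and marker lists stayed at 0. AP-1 and Egr genes are expressed in all these cell types, and the part of cell composition in the levels of Egr1, Fosl1, the immediate early genes and the targets was not tested. In a bulk sample, a different number of cells of a type cannot be told apart from a different amount of RNA per cell.

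Heat shock genes are another group induced by stress and by handling of tissue. None of 11 was called or had an unadjusted p under 0.05 in the authors' deposited table, and their median log2 fold change was 0.15 beside 0.05 over all tested genes. Over all tested genes the authors called 6.60% higher and 5.70% lower. With 11 genes, the count is not read as a result about stress or handling. The genes of highest mean level are given. Hspa8 was at 333 and 459 FPKM (q = 0.591) and Hspe1 at 268 and 321 FPKM (q = 0.888 in the authors' deposited table).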

How the data were processed

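Crypt RNA libraries of 3 Adar fl/fl controls and of 3 Adar iΔgut mice were compared. The tools STAR and Cufflinks and the build GRCm38 are named, without versions, per the submitters' processing notes. The authors deposited 1 table with an FPKM for each of 2 conditions, a log2 fold change and a p-value and q-value per gene. The log2 fold change that the authors deposited was log2 of TMX plus 1 over con plus 1 (pseudocount 1), which understates the change of low genes, and recomputing Benjamini-Hochberg adjustment over 15762 genes gave the deposited q-value. No source used here says how libraries entered each condition or gives their depth.

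The planned test over libraries needed values per library, so the authors' calls were described with no new test across genes. All 55446 identifiers matched GENCODE vM21, and 60 genes with status HIDATA were left out. For exons and lengths, 1 transcript a gene was used, by APPRIS rank and then length. The adjustment and the motif search were tested on simulated data. The members and all lists were chosen with earlier results of these data known. Named were Adar, all members and, of each list, the called genes, or of more than 6 those of largest change, and without calls at most 2 of highest level. Genes that made up much of a marker sum were named after their values were seen. The values of 1 called gene are not reported here. With 2 pooled values, genes of like pattern cannot be ranked. Software was Python 3.11.15 with numpy 2.4.6 and pandas 2.3.3, and matplotlib 3.10.9 for the plots.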

Additional observations from a re-analysis of the deposited data

How the results depend on the processing

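Egr1 was the only member called when the authors' p-values were adjusted over 13553 tested genes whose mean FPKM reached 1, over 12516 protein-coding genes or, with no filter on low values, over 55386 genes, and no member was called lower. Over these settings the adjusted p of Egr1 lay between 0.000938 and 0.00393 and that of Junb between 0.0805 and 0.332. The sign of each of the 7 log2 fold changes stayed the same with a pseudocount of 0.1 or 0.01, with equal summed FPKM and with centring on the median of tested genes. Their median lay between 0.67 and 0.93. Equal sums moved the median of all tested genes from 0.05 to 0.23. The smaller pseudocount of 0.01 gave Fosl1 a log2 fold change of 7.16 in place of 3.30 and Egr1 4.57 in place of 3.50.

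No paired analysis was possible because the deposited table holds 1 pooled value per condition, and leaving out replicates was not run for the same reason. The depth is unknown, so no limit can be set for genes listed at 0.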

Other observations

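Fosl1 belongs to a class of genes that were near 0 in con and clearly above it in TMX. With bounds chosen after its values were seen, 49 tested genes had at most 0.1 FPKM in con and at least 5 FPKM in TMX, and the authors called 8 of them, which is 16.3%. Of the 81 tested genes with a log2 fold change at least as large as that of Egr1, the authors called 50.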
